A study of Rattus norvegicus with 23 samples.

Results

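The genes that build and drive the synaptic vesicle, its fusion machinery and the synaptic scaffold were followed in rat dorsal root ganglia (DRGs) after a conditioning lesion. Members were the probes whose annotated symbol begins with the name of a synaptotagmin, synapsin, synaptophysin, SV2, SNAP, syntaxin, syntaxin-binding, VAMP, complexin, Rab, neurexin, neuroligin or Dlg and Dlgap family. This gave 84 probes for 82 genes, of 5088 probes and 4153 genes with a single symbol on the array. There were 28 Rab probes, 19 SNARE probes, 13 synaptotagmins, 8 Dlg and Dlgap scaffolds, 7 synapsins, synaptophysin and SV2 probes, 5 neurexins and neuroligins, and 4 SNARE regulators (Stxbp and Cplx). The symbols alone decided, so Rab3ip, a Rab-interacting protein, stood among the Rab probes, and Snap91, a clathrin assembly protein also called AP180, among the SNARE probes. Vamp2 and Rab1a each had 2 probes, and every other gene had 1.

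The sciatic nerve of Long-Evans rats of postnatal day 20 to 24 was cut, and DRGs L4 and L5 were taken 4, 8, 12, 18, 24, 48, 148 or 296 h later. On each of 23 two-colour arrays RNA labelled as lesioned carried Cy5 and RNA labelled as intact carried Cy3, in triplicate from 4 to 148 h and with 2 arrays at 296 h. Values here are log2 of the deposited ratio, read from the dyes as lesioned over intact, so a value below 0 means less signal after the lesion. The direction is the likely one, since the file itself does not name it. The labels name no allele, transgene or drug for any rat of these arrays. The labels are not of one mind on the material, since the sample fields name cultured DRG cells and the labelling protocol mentions cultures given cAMP, whereas by the treatment protocol the ganglia came straight from operated rats. The second 296 h array has 294 h in its time label. Whether replicates came from separate rats is not stated, and a p-value here reflects only how far such samples spread, which may be technical. A ganglion holds sensory neurons, satellite glia, Schwann cells, vessels and immune cells, and in such bulk RNA fewer cells of a type cannot be told apart from less RNA per cell. Ratios carry no level, so whether the markers of sensory neurons are abundant in this RNA could not be checked.

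A synaptic vesicle is filled, docked and fused in steps that have their own proteins. Rab GTPases steer vesicles to their membrane, synaptotagmins sense calcium, and the vesicle SNAREs (VAMPs) zip together with syntaxins and SNAP25 on the target membrane, guided by complexins and syntaxin-binding proteins. Synapsins tether vesicles to the cytoskeleton, neurexins and neuroligins join both sides of the synapse, and Dlg and Dlgap proteins hold the receptors of the receiving side. The cell bodies of DRG neurons receive few synapses themselves, but make the proteins of the terminals they send to skin, muscle and spinal cord, and the same families also serve traffic between the Golgi, endosomes and growing axon tips.

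On 17 arrays nearly all probes were measured (4945 to 5011). On the other 6, here called sparse, there were 2063 to 4353. Replicates 2 and 3 of 48 h, every 148 h array and replicate 2 of 296 h were sparse, so array class and late time overlapped. Their weights in the fit lay between 0.22 and 0.55, against 0.39 to 3.10 for full arrays. At 296 h the full and the sparse array had the same weight, 0.39. Of the 84 member probes 48 (57.1%) had at least 2 arrays at every time, against 45.7% of all probes, and 30 were measured on all 23 arrays. The other 36 were 10 Rab, 7 SNARE, 5 Dlg or Dlgap, 5 synaptotagmin, 4 neurexin or neuroligin, 3 synapsin, synaptophysin or SV2 and 2 SNARE regulator probes. These were tested at single times where they had 2 arrays, and not over all times.

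The promoters of 4 genes with results below, among those that RefSeq places, are shown as examples (build GRCr8, the 250 bases before the gene start, 5′ to 3′ on the gene's strand). Syn1 lies at chrX:3725495-3725744 on the plus strand and Vamp1 at chr4:159698644-159698893 on the plus strand. Cplx1 lies at chr14:1328823-1329072 on the plus strand and Rab7a at chr4:122064186-122064435 on the minus strand. Capitals mark matches, on either strand, to the CRE (TGACGTCA), its core (TGACG), the GC box (GGGCGG), the AP-1 site (TGANTCA) or the E-box (CACGTG). A CRE is counted also as 2 overlapping cores.
Syn1: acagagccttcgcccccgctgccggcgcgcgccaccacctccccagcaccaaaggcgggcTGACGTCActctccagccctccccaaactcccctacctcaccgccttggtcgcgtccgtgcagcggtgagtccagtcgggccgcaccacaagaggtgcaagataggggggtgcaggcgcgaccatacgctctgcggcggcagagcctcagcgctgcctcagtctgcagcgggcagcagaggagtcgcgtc
Vamp1: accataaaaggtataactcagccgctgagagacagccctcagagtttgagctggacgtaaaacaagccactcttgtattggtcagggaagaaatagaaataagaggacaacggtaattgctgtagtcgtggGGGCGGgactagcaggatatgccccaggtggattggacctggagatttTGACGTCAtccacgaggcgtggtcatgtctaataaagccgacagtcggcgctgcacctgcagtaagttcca
Cplx1: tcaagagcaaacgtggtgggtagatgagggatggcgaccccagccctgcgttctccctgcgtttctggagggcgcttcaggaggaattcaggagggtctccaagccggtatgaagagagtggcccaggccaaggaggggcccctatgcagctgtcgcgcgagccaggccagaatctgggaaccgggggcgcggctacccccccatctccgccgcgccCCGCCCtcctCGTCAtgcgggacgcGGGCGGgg
Rab7a: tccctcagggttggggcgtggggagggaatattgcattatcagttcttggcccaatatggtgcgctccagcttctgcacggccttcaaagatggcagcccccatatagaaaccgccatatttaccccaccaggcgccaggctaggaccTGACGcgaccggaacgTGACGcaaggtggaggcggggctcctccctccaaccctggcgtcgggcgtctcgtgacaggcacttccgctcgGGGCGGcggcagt
The full CRE stood at position -190 of Syn1 and -71 of Vamp1. It was found in these 2 of the 63 members with a listed promoter and in 1.59% of all 33469 promoters of the table. The promoters of Cplx1 and Rab7a held such cores and GC boxes only. Single promoters were read only for genes called at 18 to 148 h or in late minus early. Of the others among these with a listed promoter, Rab1a held a core and GC boxes, Stx4 and Syt11 a GC box only, and Dlgap3 no match. The 4 shown thus do not stand for all called genes. Among the 63 members, 66.7% held a GC box (30.5% of all promoters), 28.6% a CRE core (18.2%), 11.1% an E-box (5.59%) and 3.17% an AP-1 site (6.34%). The motifs were chosen with the results known, and a match describes letters, not a bound site.

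Few members passed at any single time. Values within 0.5 of 0 were as common among members as among all probes at 24 h (79.8% and 80.4%), and at 148 h they were 51.7% and 46.9%. At single times 22 of 615 member tests passed the threshold (adjusted p under 0.05 in limma, over all probes tested at that time), on 13 probes. Of these calls 18 were lower and 4 higher after the lesion, but they counted the same probes repeatedly. Dlgap2 alone gave 7 of the lower calls, and 3 probes (Dlgap2, Stx4 and Vamp3) were called at 2 or more times. By their probe names Dlgap2, Stx4, Cplx1, Dlgap3 and Syn1, all with lower calls, came from source plate 41. So did Syn2 and Vamp7, lower over all times, and Stx1a, higher over all times. The part of that plate in the calls was not tested. All 6 calls in the first 12 h were lower, and they came from Dlgap2, Stx4 and Sv2c only. At 4 h 3 of 84 member probes were lower and 0 higher, where of all probes 1.85% were called, 1.24% lower and 0.618% higher. At 8 h 1 of 84 was lower and 0 higher (1.26% of all called, 0.799% lower, 0.46% higher). At 12 h 2 of 84 were lower and 0 higher (3.61% of all called, 1.95% lower, 1.65% higher). At 18 h 1 of 84 was lower and 1 higher (2.07% of all called, 1.26% lower, 0.818% higher). At 24 h 8 of 84 were lower and 0 higher (6.19% of all called, 3.91% lower, 2.27% higher). At 48 h 2 of 81 were lower and 1 higher (3.96% of all called, 2.01% lower, 1.95% higher). At 148 h 1 of 60 was lower and 2 higher (8.75% of all called, 3.83% lower, 4.93% higher). At 296 h 0 of 54 were lower or higher (0.106% of all called, 0.0353% lower, 0.0706% higher). At 4 h and at 24 h the members' share was over 1.5 times that of all probes, but it moved with single arrays. Without 24 h replicate 3 it was 1 of 83 (1.2%, all probes 1.98%), and without replicate 1 it was 2 of 84 (2.38%, all probes 3.25%). Without 24 h replicate 2 it was 8 of 83 (9.64%, all probes 4.23%). At 4 h it was 1 probe whichever 4 h array was left out. That was 1.2%, 1.19% and 1.2% without replicates 1, 2 and 3, beside 1.22%, 1.5% and 0.508% of all probes. The share of all probes also moved with source plates. Without plates 36, 52 and 53 it was 0.799% at 4 h, 0.42% at 8 h, 2.93% at 12 h and 4.72% at 24 h. Of 81 members 3, 1, 2 and 7 were then called at these times. The cause of these shifts was not tested. With full arrays alone 5.95% of members were called at 24 h (all probes 4.29%) and 4.76% at 12 h (all probes 2.67%). At 296 h, with 2 arrays, 9 of the 54 members (16.7%) had an unadjusted p under 0.05 in limma, against 11.1% of all probes. These calls borrow the spread of all 23 arrays, and with the arrays of a time alone 0 members passed at each time from 4 to 148 h. With those arrays alone at most 0.14% of all probes passed at any of these times. In every comparison together 24 member probes passed and 60 did not. Of the 24, 21 passed in the mean over the 8 times, where 40% of all probes did. The share of all probes that passed in any comparison is not given here. The 60 ranged at 24 h from -0.68 to 0.84 with a median of -0.01.

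**Figure D1:**
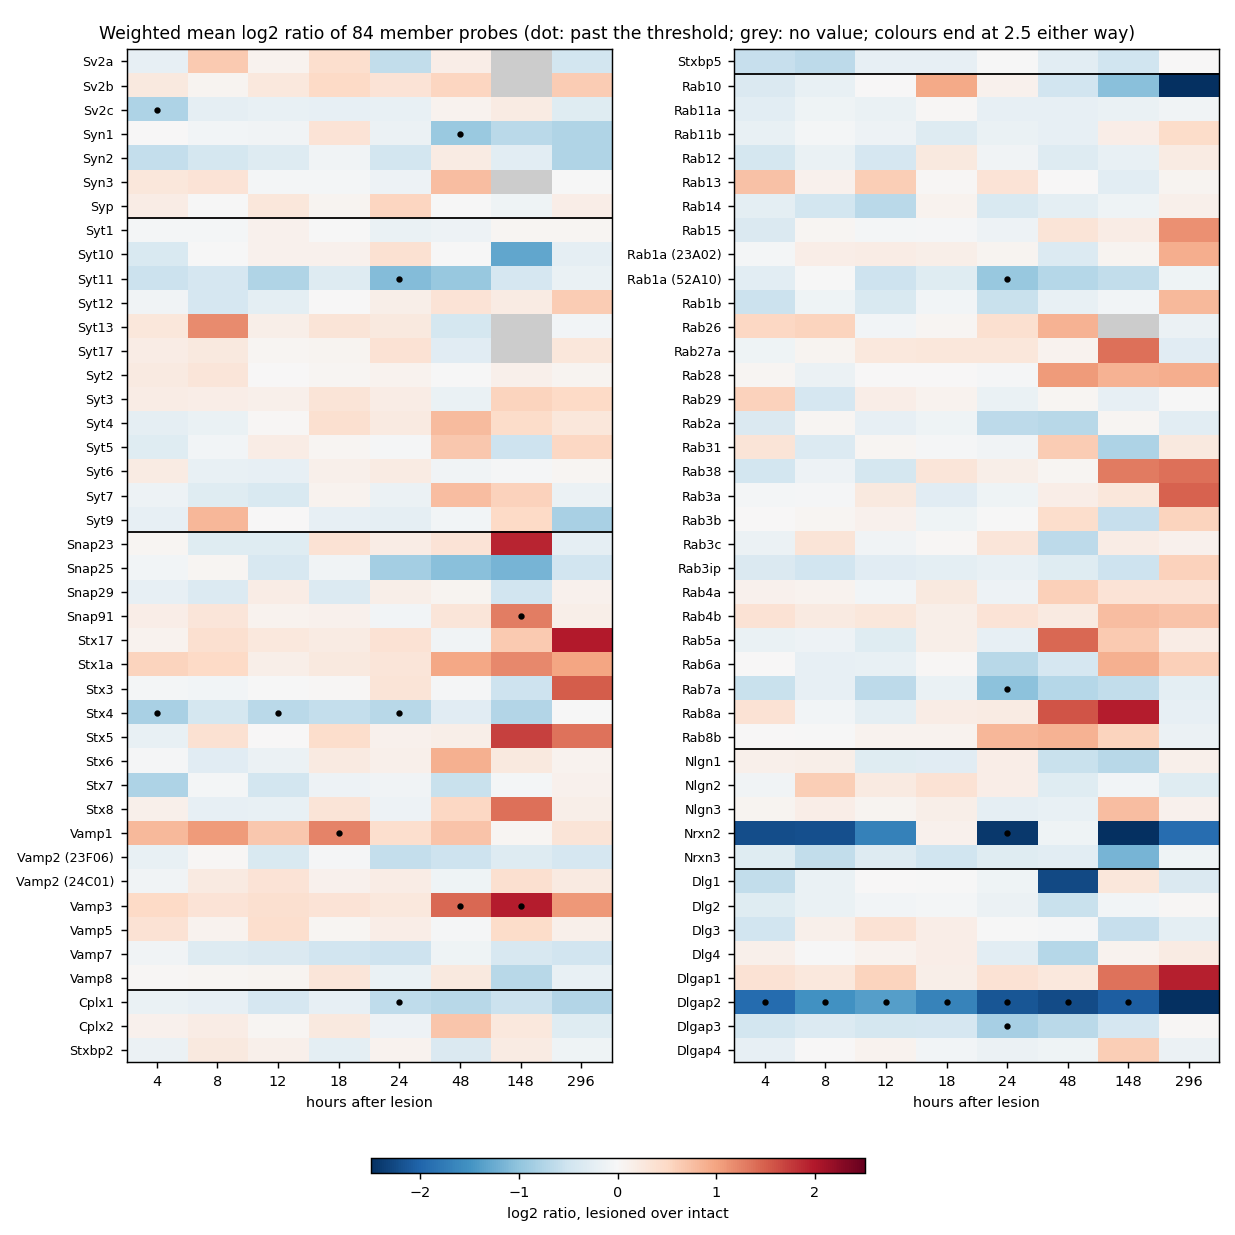
Weighted mean log2 ratio (lesioned over intact, colour) of the 84 member probes (rows, ordered by subfamily with a line between subfamilies) at the 8 times (columns, hours after the lesion). A dot marks an adjusted p under 0.05, grey marks no value, and cells with 1 array are drawn although they were not tested. Dlgap2 is the row with dots at 7 times, and the column of 24 h holds 8 dots, all on lower values.

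Among the scaffold genes Dlgap2 was the one called at more than 1 time. Dlgap2 belongs to the family that links Dlg proteins to the Shank layer of the postsynaptic density. It was lower at each of the 7 times from 4 to 148 h, and its weighted mean over the 8 times was -1.94 ± 0.11 (SE, 23 arrays, 3.85-fold lower, adjusted p = 5.43e-10). The arrays read -1.58, -1.80 and -2.23 at 4 h, -1.57, -1.39 and -1.55 at 8 h, and -1.55, -1.48 and -1.24 at 12 h. They read -1.19, -1.66 and -2.67 at 18 h and -2.43, -2.21 and -1.91 at 24 h. Later they read -2.61, -1.31 and -3.21 at 48 h, -2.53, -1.81 and -2.10 at 148 h, and -2.31 and -2.98 at 296 h. All 23 arrays lay below 0, so lesioned RNA gave the weaker signal on each. Of the 30 members measured on every array it was the sole one with a single sign throughout, and of all 1501 such probes 35 (2.33%) were below 0 on every array. The weighted means and their adjusted p were -1.92 ± 0.23 (0.000172) at 4 h, -1.38 ± 0.17 (0.000195) at 12 h, -2.13 ± 0.21 (1.45e-05) at 24 h and -2.07 ± 0.44 (0.0076) at 148 h. Without 148 h replicate 3 the 148 h value was -2.05 with an adjusted p of 0.0569. No array exchanged the dyes, so a constant dye effect of this probe cannot be told apart from a lesion effect that is the same at every time. Its late minus early difference, in which a constant dye effect cancels, was -0.71 ± 0.28 (adjusted p = 0.157), and 0.34 (adjusted p = 0.538) after scaling each array to an equal spread.

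The other scaffold genes were more modest. Dlgap3, of the same family, read -1.89, -0.51 and -0.55 at 24 h, with a weighted mean of -0.82 ± 0.21 (adjusted p = 0.0236). Without 24 h replicate 1, its lowest array, the value was -0.53 (adjusted p = 0.139), and without replicate 3 it was -1.01 (adjusted p = 0.0608). Over all times Dlgap3 was below 0 on 22 of 23 arrays and its mean effect was -0.44 ± 0.11 (adjusted p = 0.00376). Dlg1, a membrane-associated guanylate kinase, had a mean effect of -0.40 ± 0.23 that did not pass, and 1 sparse 48 h array read -5.01. Dlgap1 had no test over all times, but lay above 0 on 19 of its 20 arrays, with extremes of -0.10 and 3.19 and a median of 0.49. Thus members of this family lay on opposite sides of 0, which is a description of the arrays and no test.

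Nrxn2, a presynaptic adhesion protein that binds neuroligins, had the lowest value of any member at 24 h. Its arrays read -2.68, -2.87 and -1.86 there, with a weighted mean of -2.42 ± 0.57 (5.35-fold lower, adjusted p = 0.0218). It read -2.18, -1.90 and -2.51 at 4 h, -1.76, -1.96 and -3.22 at 8 h, and -0.60, -1.90 and -1.79 at 12 h. These early values were all below 0, and the adjusted p was 0.094, 0.0692 and 0.0578 at the 3 times. At 18 h the arrays read -0.74, 1.90 and -2.37, so they did not share a sign. Later Nrxn2 had 4 values, -0.11 at 48 h, -5.99 at 148 h, and -2.40 and -1.40 at 296 h, and 18 of its 19 arrays lay below 0. The call at 24 h was lost when any 24 h array was left out, with values of -2.80 to -2.14 and adjusted p of 0.0737 to 0.137. Nrxn3 had a mean effect of -0.45 ± 0.14 (adjusted p = 0.0155) and lay below 0 on 18 of 23 arrays. Its adjusted p was 0.0555 without 296 h replicate 1. The 3 neuroligins passed at no single time at which they were tested, and had too few late arrays for the tests over all times.

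Of the vesicle proteins, Syn1 read lower on the late arrays. Syn1, the synapsin that tethers vesicles to actin, read -0.11, 0.12 and -0.03 at 4 h, -0.15, -0.0005 and -0.01 at 8 h, and -0.80, 0.05 and -0.04 at 12 h. It read 0.26, 0.52 and 0.08 at 18 h and 0.03, -0.03 and -0.37 at 24 h. At 48 h the arrays read -1.07, -0.76 and -0.95, at 148 h -0.74, -0.55 and -0.78, and at 296 h -1.04 and -0.44. All 8 late arrays were below all but 1 of the 15 arrays up to 24 h, the exception being 12 h replicate 1, which fell within the late range. Syn1 was lower at 48 h by -0.94 ± 0.25 (adjusted p = 0.0403), and its late minus early difference (the average of the 48, 148 and 296 h means less that of the 4, 8 and 12 h means) was -0.73 ± 0.19 (adjusted p = 0.0335).
The low values were present in both array classes. The full arrays of 48 h and 296 h read -1.07 and -1.04, and the 6 sparse arrays -0.95 to -0.44. With full arrays alone, which leaves 1 array at each of these times, the difference was -1.01 with an adjusted p of 0.9999. Scaling each array to an equal spread gave -0.53 (adjusted p = 0.123). The call was lost in 7 of the 23 fits that each left out 1 array, with values of -0.83 to -0.63 and adjusted p of 0.0504 to 0.112. These left out 4 h replicates 2 and 3, 48 h replicate 1, 148 h replicates 1 and 3, and either 296 h array. The call at 48 h was lost without any 48 h array (-1.04 to -0.83, adjusted p of 0.0923 to 0.243) and also without 8 h replicates 2 and 3 or 148 h replicate 1 (adjusted p of 0.0502 to 0.0509).

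The related vesicle genes took other courses. Syn2 had a mean effect of -0.34 ± 0.11 (adjusted p = 0.0214), without a late minus early call (0.17 ± 0.28), and without 296 h replicate 2 its adjusted p was 0.117. Sv2c, a vesicle glycoprotein, was lower at 4 h only among the single times, where its arrays read -0.97, -0.65 and -0.73 (-0.76 ± 0.17, adjusted p = 0.0294). That call was lost when any 4 h array was left out, with adjusted p of 0.0681 to 0.146. Syp, the vesicle marker synaptophysin, had 0.14 on average and did not pass.

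**Figure D2:**
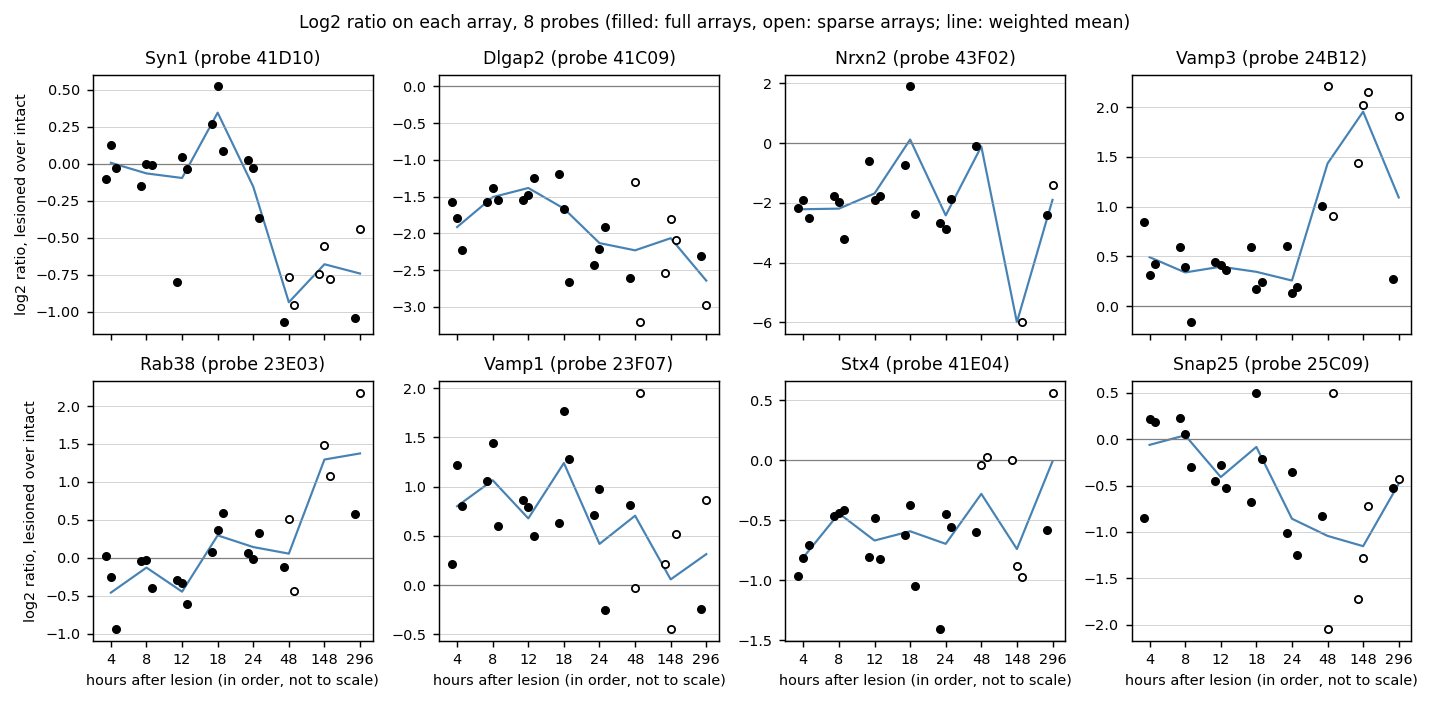
Log2 ratio (lesioned over intact, vertical axis, own scale in each panel) on each array for 8 member probes against hours after the lesion, in order and not to scale. Filled points are full arrays, open points sparse arrays, and the line joins the weighted means, with a line at 0 where it lies in range. Dlgap2 lies below 0 throughout, Syn1 is low from 48 h on, and most of the high late points of Vamp3 and Rab38 are open.

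The SNARE genes split by member. Of 12 SNARE probes tested over all times, 4 were higher and 4 lower. Of all 48 members tested 7 were higher and 14 lower (43.8% called), and of all probes 40% were called, 18.5% higher and 21.5% lower, so the share was near the background. Of the 21 calls 4 were kept with full arrays alone (Cplx1, Dlgap2, Stx4 and Vamp3), and as for Dlgap2 a constant dye effect is part of every mean effect. At an unadjusted p under 0.05 these shares were 54.2% of members and 48.6% of all probes. On the higher side were Vamp3, Vamp1, Stx1a and Stx5, and on the lower side Stx4, Snap25, Vamp7 and the Vamp2 probe 23F06. The median of the 12 was 0.18, against -0.04 over the 48 members and -0.02 over all 2327 tested probes.

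Vamp3, or cellubrevin, is the vesicle SNARE of recycling endosomes in most cell types. It read 0.84, 0.31 and 0.43 at 4 h, 0.59, 0.39 and -0.16 at 8 h, 0.44, 0.41 and 0.36 at 12 h, 0.59, 0.17 and 0.24 at 18 h, and 0.61, 0.13 and 0.19 at 24 h. It read 1.002, 2.21 and 0.90 at 48 h, 1.44, 2.02 and 2.15 at 148 h, and 0.28 and 1.91 at 296 h. Thus 22 of 23 arrays lay above 0, and 7 of the 8 late arrays above every earlier one. The weighted mean was 1.43 ± 0.32 at 48 h (adjusted p = 0.0182) and 1.95 ± 0.38 at 148 h (3.87-fold higher, adjusted p = 0.00384). The late minus early difference was 1.08 ± 0.24 (adjusted p = 0.0166), and the mean effect 0.79 ± 0.10 (adjusted p = 7.54e-06).
The high late arrays were mostly sparse ones. The 2 late full arrays read 1.002 and 0.28, and the 6 sparse arrays 0.90 to 2.21. With full arrays alone the late minus early value was 0.23 and with array class as a block 0.29 (adjusted p of 0.9999 and 0.999), while the mean effect with full arrays alone was 0.44 ± 0.11 (adjusted p = 0.0363). Scaling each array to an equal spread gave 0.40 for late minus early (adjusted p = 0.312), and leaving out 296 h replicate 2 gave 0.81 (adjusted p = 0.211). The 48 h call was lost without 48 h replicate 2 (0.97, adjusted p = 0.23) and the 148 h call without 148 h replicate 3 (1.83, adjusted p = 0.0507).
Macrophage markers were also higher in late minus early. Of 8 on the array 2 could be tested there, and both were higher (C1qb 2.12 ± 0.39, Lyz2 1.77 ± 0.30), again with mostly sparse late arrays. Their part in the Vamp3 result was not tested.

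Vamp1, or synaptobrevin 1, the vesicle SNARE of many motor and sensory terminals, was higher at 18 h. Its arrays read 0.21, 1.22 and 0.81 at 4 h, 1.06, 1.44 and 0.60 at 8 h, 0.86, 0.80 and 0.50 at 12 h, and 0.63, 1.76 and 1.28 at 18 h. All 12 of these lay above 0. Later values lay on both sides of 0, with 0.71, 0.97 and -0.26 at 24 h and -0.44 to 1.95 on the 8 arrays from 48 h on. The weighted mean at 18 h was 1.24 ± 0.24 (2.36-fold higher, adjusted p = 0.00943) and at 8 h 1.06 ± 0.26 (adjusted p = 0.055). Without 18 h replicate 2 the 18 h value was 0.83 (adjusted p = 0.302). The late minus early difference was -0.49 ± 0.36 (adjusted p = 0.48), and the mean effect 0.66 ± 0.14 (adjusted p = 0.00138).

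The partner SNAREs of the nerve terminal lay on both sides of 0. Stx1a, the neuronal syntaxin, was above 0 on 21 of 22 arrays, with a lowest value of -0.25, a median of 0.43 and a highest of 2.45, and its mean effect was 0.61 ± 0.12 (adjusted p = 0.000786). With full arrays alone that of Stx1a was 0.25 (adjusted p = 0.165), and its late full arrays read -0.25 and 0.28. Snap25, which pairs with it, was below 0 on 17 of 23 arrays, with extremes of -2.05 and 0.50 and a median of -0.46. The mean effect of Snap25 was -0.51 ± 0.14 (adjusted p = 0.00674). Snap25 read -1.02, -0.36 and -1.25 at 24 h, where its adjusted p was 0.0562. Of the Vamp2 probes, 23F06 had a mean effect of -0.30 ± 0.11 (adjusted p = 0.0316), while 24C01 lay above 0 on 14 of 19 arrays with a median of 0.10 and had too few late arrays for this test. The Vamp2 probes thus disagreed in sign, and the mean of both probes gave -0.11 (adjusted p = 0.3). The 23F06 call was also lost without 48 h replicate 1 or 2, 148 h replicate 1 or 2, or 296 h replicate 2 (-0.30 to -0.26, adjusted p of 0.0536 to 0.142).

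Stx4, a syntaxin of the plasma membrane in many tissues, was lower at 4, 12 and 24 h. Its arrays read -0.97, -0.82 and -0.71 at 4 h, -0.46, -0.44 and -0.41 at 8 h, and -0.80, -0.48 and -0.82 at 12 h. They read -0.62, -0.38 and -1.05 at 18 h and -1.41, -0.45 and -0.56 at 24 h. All 15 arrays of the first day were below 0, and the later ones ran from -0.98 to 0.56. The weighted means that passed were -0.81 ± 0.18 at 4 h (adjusted p = 0.0294), -0.67 ± 0.14 at 12 h (0.00884) and -0.70 ± 0.17 at 24 h (0.02). The mean effect was -0.53 ± 0.09 (adjusted p = 0.000188) and with full arrays alone -0.63 (adjusted p = 0.00842). The single-time calls were lost without any 4 h array at 4 h (adjusted p of 0.1 to 0.119), without 12 h replicate 3 at 12 h (-0.55, 0.185), and without 24 h replicate 1 or 3 at 24 h (-0.50 and -0.79, 0.118 and 0.0752). Vamp7, a SNARE of late endosomes and axon growth, had a mean effect of -0.34 ± 0.10 (adjusted p = 0.011). Stx5, a Golgi syntaxin, had 0.50 ± 0.16 (adjusted p = 0.0179), with its highest arrays at 148 h (4.42) and 296 h (2.59), and 0.34 (adjusted p = 0.138) without 296 h replicate 2. Snap91, the clathrin assembly protein, was higher at 148 h, where it read 0.48, 2.06 and 0.84 (1.28 ± 0.34, adjusted p = 0.027). Without 148 h replicate 2 it was 0.71 (adjusted p = 0.384), and without replicate 3 it was 1.55 (adjusted p = 0.0569).

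Cplx1, the complexin that clamps and then promotes fusion, was the SNARE regulator that moved. It read -0.87, -0.43 and -0.72 at 24 h, with a weighted mean of -0.64 ± 0.15 (adjusted p = 0.0153). Over all arrays it ran from -0.98 to 0.00 and its mean effect was -0.45 ± 0.08 (adjusted p = 0.000274), with -0.46 on full arrays alone (adjusted p = 0.033). The 24 h call was lost without 24 h replicate 1 (-0.58, adjusted p = 0.0731) or 3 (-0.59, 0.149). Stxbp5, or tomosyn, had a mean effect of -0.30 that did not pass, and Cplx2 and Stxbp2 passed in no comparison.

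Of the 13 synaptotagmins 8 were tested over all times, and Syt11 (lower) and Syt3 (higher) passed. Syt1, the main calcium sensor of fast release, had a mean effect of -0.02 ± 0.07 and ran from -0.31 to 0.25 over 23 arrays. Syt11, a synaptotagmin that does not bind calcium, read -1.37, -1.12 and -0.91 at 24 h, with a weighted mean of -1.09 ± 0.30 (adjusted p = 0.0392) and a mean effect of -0.58 ± 0.16 (adjusted p = 0.0079). Its 24 h call was lost when any 24 h array was left out (-1.21 to -1.01, adjusted p of 0.132 to 0.159). Syt3 had a mean effect of 0.23 ± 0.09 (adjusted p = 0.0395), which was lost in 12 of the 23 fits that left out an array (0.18 to 0.23, adjusted p of 0.0519 to 0.195). The median mean effect of the 8 tested synaptotagmins was 0.07.

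Rab GTPases formed the largest group. Of 18 tested over all times 2 were higher and 3 lower, a smaller share than the 40% of all probes, with a median mean effect of -0.02. At 296 h, where none passed, their median was 0.57 with 13 of 18 above 0, but the 2 arrays of that time differed. Over all members the median was -0.02 on the full array and 0.35 on the sparse one. Rab3a read 0.23 on the full and 2.72 on the sparse array, whereas Rab10 read -1.97 and -3.02. Rab7a, the late endosome Rab, read -1.14, -0.50 and -1.46 at 24 h (-1.03 ± 0.25, adjusted p = 0.0192) and had a mean effect of -0.52 ± 0.13 (adjusted p = 0.00424). Rab1a, which acts between endoplasmic reticulum and Golgi, read -0.96, -0.46 and -1.42 at 24 h on probe 52A10 (-0.96 ± 0.22, adjusted p = 0.0138) and 0.29, 0.06 and -0.03 on probe 23A02. Probe 52A10 lies on source plate 52, which an alternative fit left out. The Rab1a probes disagreed, and their mean was -0.44 at 24 h (adjusted p = 0.119) and -0.15 over all times (adjusted p = 0.164), where 52A10 alone had -0.44 ± 0.12 (adjusted p = 0.00604). Without 24 h replicate 3 Rab7a was -0.73 (adjusted p = 0.277) and Rab1a -0.64 (adjusted p = 0.263). Without 24 h replicate 1 Rab7a was -0.998 (adjusted p = 0.0681). Rab2a, which acts between Golgi and endoplasmic reticulum, had a mean effect of -0.27 ± 0.11 (adjusted p = 0.0489), a value at the threshold that was lost in 17 of the 23 fits that left out an array (-0.28 to -0.22, adjusted p of 0.0518 to 0.133). Rab4b, of recycling endosomes, had a mean effect of 0.38 ± 0.10 (adjusted p = 0.00462) and lay above 0 on 19 of 22 arrays.

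Rab38, known for the biogenesis of melanosomes and related organelles, passed in late minus early but not in the moderated F-test of equal times (adjusted p = 0.109). It read 0.02, -0.26 and -0.93 at 4 h, -0.04, -0.03 and -0.40 at 8 h, and -0.29, -0.33 and -0.60 at 12 h. It read 0.08, 0.37 and 0.59 at 18 h and 0.07, -0.01 and 0.33 at 24 h. On the first 9 arrays 8 values were below 0, and 5 of the next 6 were above it. At 48 h it read -0.12, 0.51 and -0.44, at 148 h 1.49 and 1.08 on its 2 arrays, and at 296 h 0.58 and 2.17. The late minus early difference was 1.25 ± 0.25 (2.38-fold, adjusted p = 0.0103). The full late arrays read -0.12 and 0.58, and full arrays alone gave 0.57 (adjusted p = 0.9999) and array class as a block 0.63 (adjusted p = 0.999). Without 296 h replicate 2 the difference was 0.99 (adjusted p = 0.13). Its mean effect, 0.27 ± 0.10 (adjusted p = 0.0405), was -0.02 with full arrays alone and was lost in 10 of the 21 such fits that could test it (0.17 to 0.26, adjusted p of 0.0506 to 0.268).

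Between times, 3 of 48 members passed in late minus early (6.25%), and of all probes 4.98% passed. Rab38 and Vamp3 were higher (3.65% of all probes were) and Syn1 lower (1.33% were). The moderated F-test of equal times called 0 of 48 members (0.817% of all probes), with 4 members at an unadjusted p under 0.05 and the lowest adjusted p, 0.109, for Rab38. Sensory neuron markers moved in the same late arrays. Of 15 such probes tested in late minus early 4 were lower and 0 higher, with a median of -0.36. Among the 4 were Tac1 at -0.86 ± 0.20 and Calca probe 35C05 at -0.89 ± 0.23, but not Calca probe 52C03. Most of these late arrays were sparse, and marker values on full arrays alone are not given here. Of 14 Schwann cell and satellite glia probes Ncam1 was higher and Mbp lower (0.89 ± 0.22 and -0.95 ± 0.20). The part of such shifts in the Syn1 result was not tested. At 24 h, where the 8 members were lower, 1 of 18 sensory neuron probes was lower (Uchl1, -1.23) and 1 higher (Nefh, 1.19), with a median of 0.12. The 8 macrophage probes had a median of -0.08 at 24 h, from -0.39 to 0.68.

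**Figure D3:**
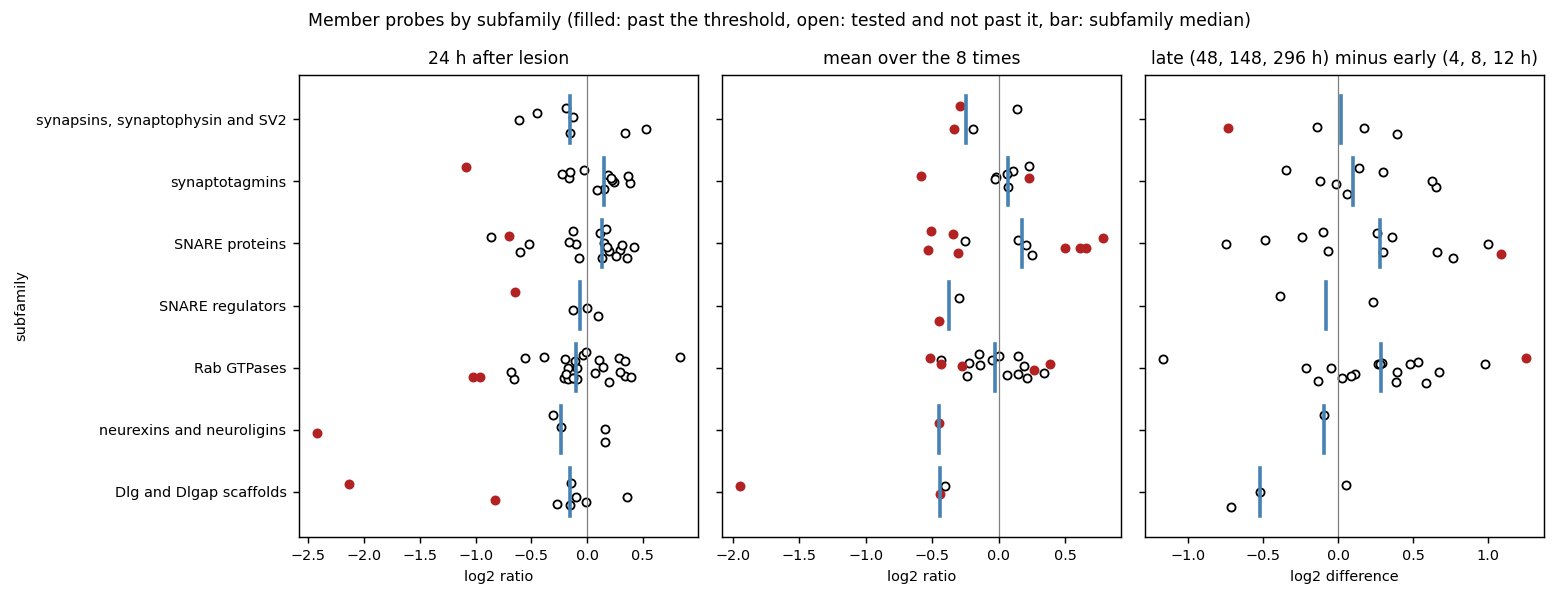
Weighted log2 values of the member probes (points) by subfamily at 24 h, as the mean over the 8 times, and as the late minus early difference. Filled points passed the threshold, open points were tested and did not, bars are subfamily medians, and vertical scatter separates points and carries no value. All 8 filled points at 24 h lie below 0, and the SNARE group has filled points on both sides of 0 in the mean over times.

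By subfamily the medians at 24 h ran from -0.23 (neurexins and neuroligins, 5 probes) to 0.16 (synaptotagmins, 13 probes), with -0.10 for Rab and 0.13 for SNARE probes. Over all members the median was -0.09, and over all 5011 tested probes 0.03. In late minus early 14 of 18 Rab probes lay above 0, with a median of 0.28, and SNARE probes had the same median, beside 0.16 for all 48 members and 0.04 for all probes. These medians are described and not tested, and most late arrays were sparse.

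Other genes of the same pathway were read from lists written from general knowledge. Among the 6 genes of SNARE disassembly and the Rab cycle, 3 were lower at 12 h and 2 at 24 h, and over all times 3 of 5 were lower and 1 higher. Of all probes 1.95% were lower at 12 h, 3.91% at 24 h and 21.5% over all times. Nsf, the ATPase that takes SNARE complexes apart, was -1.13 ± 0.22 at 12 h (adjusted p = 0.0063), -0.96 ± 0.27 at 24 h and -0.72 ± 0.14 over all times (adjusted p = 0.000773). Gdi2 and Chm, which extract Rab proteins from membranes and escort them, had mean effects of -0.51 ± 0.10 and -0.56 ± 0.10. Napa, the adaptor of Nsf, had 0.46 ± 0.10 (adjusted p = 0.00183). The Nsf and Napa values thus lay on opposite sides of 0.
Of 15 further vesicle protein and transporter genes 2 were lower and 1 higher at 24 h, when 6.19% of all probes were called. Synpr (synaptoporin) was -1.29 ± 0.24, Syngr1 (synaptogyrin) -0.87 ± 0.23, and Slc17a6, the vesicular glutamate transporter of sensory neurons, 0.62 ± 0.17. Of 19 active zone genes Rph3a, a Rab3 effector, was lower at 12 and 24 h (-0.53 and -0.63), and Rims3 was higher at 48 h on 2 arrays (2.62). Of 18 endocytosis genes 13 were tested over all times, and 5 were higher and 1 lower, near the 40% of all probes called. The clathrin chains Clta, Cltb and Cltc were among the higher ones, at 0.22, 0.35 and 0.43. Of 19 further postsynaptic and adhesion genes Mpp3 was lower at 18 h (-1.70) and Shank2 at 48 h (-2.90, 2 arrays), both also over all times. The Mpp3 probe lies on source plate 36, which an alternative fit left out. Nptx2, a secreted pentraxin that clusters glutamate receptors, was higher at 18 and 24 h (0.64 and 0.66).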

How the data were processed

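RNA of lesioned (Cy5) and intact (Cy3) rat DRGs was compared on 23 spotted oligonucleotide arrays. Per the labels and the file header the authors deposited 1 linear ratio per probe and array, taken here as lesioned over intact. How arrays were scanned, background-corrected and normalized is not given in the sources used here. With no intensities, precision is limited by the number of arrays. No authors' test columns were used, and every array column was mapped to a sample.

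Ratios were taken to log2 without an offset. The fit used limma (version 3.58.1, R 4.3.3) on all 23 arrays together, and estimated a mean per time, array weights and moderated variances. A standard error uses that pooled variance and can be smaller than the spread of 1 time's arrays. Tests were two-sided, with Benjamini-Hochberg adjustment over all probes tested and a threshold of 0.05. Single times needed 2 arrays at that time. The mean of the 8 times, late minus early and the F-test needed 2 at every time. Arrays with at most 200 missing probes were called full (17), the others sparse (6). Missing values were not imputed.

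Gene names came from the platform annotation, and all 84 members matched the reference table by Entrez identifier with an unchanged symbol. Of the 5088 probes 663 had no symbol and 2 several. Named were Syn1, Nrxn2 and Dlgap2, members past the threshold over all times or between times, at single times those past it repeatedly or as highest or lowest, the highest and lowest mean effect of each subfamily, and other probes of these genes. Dlgap1, Snap91, Syt1, Cplx2, Stxbp2 and the neuroligins fell outside that rule and were chosen after their values were seen. Members, lists and motifs were chosen with earlier results of these data known. The fit was tested on simulated data. Alternatives were other weights, centring, scaling, filters, robust variance, full arrays only, a replicate block, the methods' t-test, probe averages, source plates and leaving out each array. Same-numbered arrays did not deviate together (Spearman -0.164 to 0.177, 4 of 77 pairs over 0.1), so numbers were not taken as pairs. No arrays were duplicates.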

Additional observations from a re-analysis of the deposited data

Results flagged for a closer look

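Differences between the late and the early times were found for 3 member probes. Late minus early was 1.25 for Rab38, 1.08 for Vamp3 and -0.73 for Syn1 on the log2 scale (limma, adjusted p of 0.0103, 0.0166 and 0.0335). The late full arrays read -0.12 and 0.58 for Rab38, 1.002 and 0.28 for Vamp3, and -1.07 and -1.04 for Syn1. With array class as a block the differences were 0.63, 0.29 and -1.01 (adjusted p of 0.999, 0.999 and 0.553), and since all 148 h arrays were sparse, that time and array class cannot be told apart.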

How the results depend on the processing

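Counts of called members moved with the weighting of the arrays, and so did the share of all probes called, given here in brackets. With equal weights they were, of 84 members, 1 at 4 h (0.538%), 0 at 12 h (0.139%), 1 at 18 h (0.379%) and 2 at 24 h (1.42%). Later they were 9 of 81 at 48 h (15.6%), 13 of 60 at 148 h (28.7%) and 8 of 54 at 296 h (8.65%). Of 48 members 2 passed in the F-test (4.21%) and 5 in late minus early (11.3%). With 1 weight per array class they were 1 at 12 h (0.916%), 5 at 48 h (11%) and 3 at 296 h (2.75%). Scaling of the arrays gave 1 at 296 h (0.777%) and 1 in late minus early (2.06%). Full arrays alone gave 4 of 84 at 12 h (2.67%) and 5 of 84 at 24 h (4.29%). In that fit the lone arrays of 48 and 296 h are assumed to vary like the others and 148 h has none, so no counts are given there. Array class as a block gave 0 of 48 in late minus early (0.129%). With the arrays of a time alone, and with the methods' t-test after adjustment, the count was 0 at each time from 4 to 148 h. Of all probes the former called at most 0.14% at any of these times and the latter 0%. The unadjusted t-test gave 7 at 4 h (8.73% of all probes), 4 at 8 h (8.81%), 18 at 12 h (10.5%) and 4 at 18 h (7.86%). Later it gave 5 at 48 h (8.52%), 6 at 148 h (13.1%) and 1 at 296 h (5.93%). The cause of these differences was not tested.

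Numbers shared between times did not pair the arrays. The replicate block gave 3, 2, 5, 3, 9, 3, 3 and 0 calls from 4 to 296 h, 22 in the mean effect, 0 in the F-test and 3 in late minus early, against 1 at 8 h, 2 at 12 h, 2 at 18 h, 8 at 24 h and 21 in the mean effect without it. Of all probes the block called 1.73%, 1.04%, 3.21%, 1.97%, 6.07%, 4.05%, 7.7% and 0.0706% from 4 to 296 h. It called 39.3% in the mean effect, 0.774% in the F-test and 4% in late minus early.

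The share of all probes called also moved when 1 array was left out. Without replicates 1, 2 and 3 of the time itself it was 1.22%, 1.5% and 0.508% at 4 h (1.85% with all arrays). It was 3.1%, 1.69% and 1.33% at 12 h (3.61%), and 3.25%, 4.23% and 1.98% at 24 h (6.19%). For other times and arrays it is not given here. Of the 3 late minus early calls 0 were kept in every fit that left out 1 array. Leaving out each array in turn gave 1 to 4 member calls at 4 h and 1 to 3 at 8 h. It gave 1 to 5 at 12 h, 1 to 3 at 18 h and 1 to 10 at 24 h. Later it gave 1 to 3 at 48 h, 0 to 4 at 148 h, 0 to 5 at 296 h, 16 to 23 in the mean effect, 0 to 4 in late minus early and 0 to 1 in the F-test. The fewest were without 24 h replicate 3 at 24 h, without 148 h replicate 3 at 148 h and without 296 h replicate 2 in late minus early, and the 5 at 296 h were without 296 h replicate 1. Of the 22 single-time calls 6 were kept in every such fit, all of Dlgap2, and 13 were kept with full arrays alone. Of the 21 mean-effect calls 14 were kept in every such fit and 4 with full arrays alone (Cplx1, Dlgap2, Stx4 and Vamp3).

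Turned in sign were the mean effect of Rab38 with full arrays alone (-0.0197) and late minus early of Dlgap2 with scaling (0.34), neither past the threshold there. Of the other values of named probes 1444 kept direction and side of the threshold, 195 kept direction alone and 1 newly passed.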
